A study of Xenopus laevis and Petromyzon marinus with 21 samples.

Results

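The gene twist1 codes for a basic helix-loop-helix (bHLH) transcription factor of the neural crest, the cells that leave the border of the neural plate and form much of the face, pigment cells and peripheral nerves. The frog Xenopus laevis carries the genes of its 2 ancestral genomes side by side, so twist1 has a copy on a long chromosome, twist1.L, and one on a short chromosome, twist1.S. Rows of the frog count table were taken if their name without the ending .L or .S was twist1. This gave 2 of 49282 genes, and both passed the filter on low counts.

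The study measured poly(A) RNA from animal caps, explants of the animal pole ectoderm of frog embryos, in 18 libraries of 6 groups, with 3 libraries each. All embryos were wild type. Embryos of the induced caps received wnt8a and chordin mRNA, which code for a Wnt ligand and a BMP antagonist, at the 2-cell stage, and the caps were collected at stage 9 (blastula), stage 13 (early neurula) and stage 17 (late neurula). Control caps of stages 9, 13 and 17 were left untreated. No group received either mRNA alone or an unrelated mRNA, so Wnt activation, BMP inhibition and the injection itself cannot be told apart. Lamprey caps of the same series were not used here, because their gene identifiers are not paired with names. Libraries of a group are called a, b and c after their columns in the table.

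The twist1 protein binds E-box DNA as a dimer, often with E proteins (tcf3, tcf4 and tcf12), and Id proteins hold E proteins away from DNA. It is known for its part in the change from epithelium to migrating mesenchyme, in which cadherins are exchanged, and in frog embryos twist1 is transcribed in cranial neural crest and also in notochord and lateral plate mesoderm. In Drosophila, where the family was found, twist directs the formation of mesoderm.

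Libraries held 15596247 to 23292078 gene counts, so 1 count was worth 0.0363 to 0.0788 CPM (the count scaled to the size of its library, corrected with the TMM factor of edgeR). Counts of the injected gene wnt8a.L were 145 to 22664 in the 9 induced libraries and 1 to 6 in the 9 control libraries, and those of chrd.1.S were 2562 to 65071 in induced and 0 to 9 in control libraries. Summed neural crest markers (14 copies) stood at 2090 to 2420 CPM in induced and 21.4 to 33.5 CPM in control caps at stage 13, and at 3770 to 4380 CPM in induced and 14.6 to 27.2 CPM in control caps at stage 17. At stage 9 the sums were 10.1 to 18.3 CPM in induced and 10.8 to 12.7 CPM in control caps, with both copies of sox10 at 0 in all 6 libraries, so the label of induced crest at this stage is not carried by crest markers. The labels name no separate clutches, and p-values therefore measure only the spread between these libraries, which may be technical.

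At stage 9 twist1 was close to silent in both kinds of caps. Counts of twist1.L were 1, 1 and 2 in the induced libraries, against 6, 8 and 4 in the control libraries. Counts of twist1.S were 2, 0 and 0 in the induced libraries and 0, 0 and 0 in the control libraries. The long copy was thus low everywhere and lower in each induced library than in any control library, and the short copy was all but uncounted. Levels of twist1.L were 0.0579 ± 0.0342 CPM in induced and 0.255 ± 0.102 CPM in control caps (SD, n = 3 each). The log2 difference of −2.07 ± 0.96 (± is the standard error wherever a log2 value is given) did not pass the test across all genes (edgeR's quasi-likelihood test, adjusted p = 1), and 0.412% of all genes did at this stage. For twist1.S both groups lay at or under a floor of 3 counts, so no fold is given.

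At stage 13 both copies had risen in induced caps. Counts of twist1.L were 91, 213 and 221 in the induced libraries, against 13, 24 and 20 in the control libraries. Counts of twist1.S were 318, 344 and 730 in the induced libraries, against 1, 1 and 3 in the control libraries. Every induced library lay above every control library for either copy, and the short copy was the more counted one in induced caps and the less counted one in control caps. In CPM, twist1.L stood at 5.96 to 12.8 (10.4 ± 3.86) in induced and at 0.743 to 1.89 (1.33 ± 0.575) in control caps (SD, n = 3 each). The copy twist1.S stood at 20.8, 20.6 and 41.3 CPM (27.6 ± 11.9) in induced and at 0.0572, 0.0788 and 0.203 CPM (0.113 ± 0.0789) in control caps. Induced library a was the lowest for twist1.L, and induced library c stood apart as the highest for twist1.S. The log2 fold change was 2.99 ± 0.47 for twist1.L (7.97-fold, adjusted p = 0.00011, edgeR) and 7.87 ± 0.53 for twist1.S (234-fold, adjusted p = 1.5e-07). Both copies passed, where 40.3% of all genes did (18.9% as higher and 21.4% as lower). Control library c held 3 of the 5 control counts of twist1.S, and without it the log2 fold change of that copy was 8.57.

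At stage 17 both copies reached their highest levels. Counts of twist1.L were 3113, 4066 and 3797 in the induced libraries, against 4, 26 and 3 in the control libraries. Counts of twist1.S were 3136, 4235 and 4336 in the induced libraries, against 9, 3 and 4 in the control libraries. The copies had come to nearly the same counts in induced caps, and control caps held a few counts of each, with library b apart for the long copy. In CPM, twist1.L stood at 188, 206 and 167 (187 ± 19.7) in induced and at 0.245, 1.42 and 0.195 (0.621 ± 0.695) in control caps (SD, n = 3 each). The copy twist1.S stood at 189, 214 and 190 CPM (198 ± 14.2) in induced and at 0.552, 0.164 and 0.26 CPM (0.326 ± 0.202) in control caps. The induced libraries differed little among themselves, and no control library came near them. The log2 fold change was 8.16 ± 0.56 for twist1.L (287-fold, adjusted p = 3.4e-08, edgeR) and 9.24 ± 0.48 for twist1.S (603-fold, adjusted p = 1.1e-08), at a stage where 45% of all genes were called (22.2% as higher and 22.8% as lower). The sizes rest on the few control counts: without control library b the value of twist1.L was 9.73, and without control library a that of twist1.S was 9.89.

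**Figure D1:**
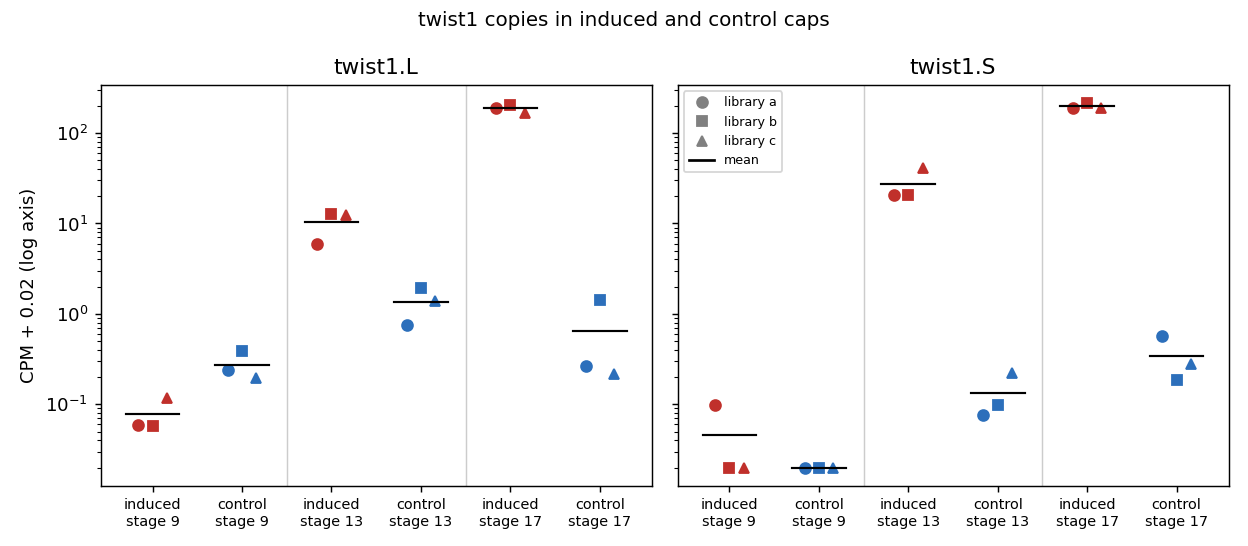
Level of each twist1 copy in every library (CPM plus a constant of 0.02 so that 0 can be drawn, log axis), induced left of control caps at stages 9, 13 and 17, with points for libraries and bars for group means. Induced caps of stage 17 sit near 187 CPM for twist1.L and 198 CPM for twist1.S, while control caps stay under 2 CPM in every library.

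Within induced caps both copies gained in both steps. Relative to stage 9, twist1.L was higher at stage 13 by 7.40 ± 0.67 on the log2 scale (adjusted p = 7.9e-08, edgeR), and for twist1.S the ratio of stage 13 to stage 9 was 1020 (95% counting interval 282 to 8450, adjusted p = 3.8e-09). Both passed, where 70.6% of all genes changed between these stages. The 2 counts of twist1.S at stage 9 lay in induced library a, and without it the log2 fold change was 12.03. From stage 13 to stage 17 twist1.L rose by 4.16 ± 0.44 (17.9-fold, adjusted p = 5.2e-06, edgeR) and twist1.S by 2.84 ± 0.33 (7.18-fold, adjusted p = 2.1e-05), where 39.7% of all genes were called (21% as higher and 18.7% as lower). In both steps all 3 libraries of the later stage lay above all 3 of the earlier one.

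Control caps showed a small early gain. Levels of twist1.L were 0.255 CPM at stage 9, 1.33 CPM at stage 13 and 0.621 CPM at stage 17. The gain from stage 9 to 13 was 2.34 ± 0.61 on the log2 scale (adjusted p = 0.0028, edgeR), at a step where 71.3% of all genes were called. With scaling by library totals instead of TMM, which moves the median of all genes in this comparison by −0.79, it was 1.56. For twist1.S, counted 0 times in all at stage 9, it was at least 2.66-fold higher at stage 13 (3 counts over the group as floor, adjusted p = 0.021), but this call rested on 5 counts and was lost without control library c of stage 13 (log2 fold change 3.51, adjusted p = 0.092), without control library a of stage 9 (4.15, adjusted p = 0.05) and with library totals (3.87, adjusted p = 0.055).

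From stage 13 to 17 neither copy passed in control caps, where 39.1% of all genes did. The log2 difference was −1.01 ± 0.56 for twist1.L (adjusted p = 0.17, edgeR) and 1.48 ± 0.78 for twist1.S (adjusted p = 0.15), and the libraries of both stages overlapped for each copy. Control library b of stage 17, with 26 counts of twist1.L, decided the first of these: without it the difference was −2.55 (adjusted p = 0.0031). In a fit of these libraries alone with a replicate block by letter it was −1.35 (adjusted p = 0.041).

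Set in order, the long copy ran from induced caps of stage 17 (187 CPM) and 13 (10.4 CPM) to control caps of stages 13 (1.33 CPM), 17 (0.621 CPM) and 9 (0.255 CPM) and induced caps of stage 9 (0.0579 CPM). The neighbours among the last 4 groups overlapped or did not pass the test. The short copy ran from induced caps of stage 17 (198 CPM) and 13 (27.6 CPM) to control caps of stages 17 (0.326 CPM) and 13 (0.113 CPM), induced caps of stage 9 (0.0258 CPM) and control caps of stage 9 (no counts). Again the first 2 groups stood clear of all others. Against the untreated blastula caps, induced caps of stage 17 were higher by 9.50 ± 0.60 for twist1.L (adjusted p = 1.5e-09, edgeR) and at least 4740-fold higher for twist1.S (adjusted p = 3.7e-10), a comparison in which 73.1% of all genes were called.

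Whether the difference between induced and control caps itself changed with stage was tested as an interaction. For twist1.L it grew by 5.06 ± 1.05 on the log2 scale from stage 9 to 13 (adjusted p = 0.0026, edgeR), where 21.6% of all genes were called. It grew by a further 5.17 ± 0.70 from stage 13 to 17 (adjusted p = 0.00041), where 8.1% of all genes were called, and by 6.71 without control library b of stage 17. For twist1.S the difference was 1.37 ± 1.00 larger at stage 17 than at stage 13, which did not pass (adjusted p = 0.5). Its change from stage 9 to 13 could not be measured with 2 counts in all 6 libraries of stage 9 (adjusted p = 0.98, and 0.0029 with DESeq2, which gave 6.17). Whether these interactions differ between the copies was not tested.

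**Figure D2:**
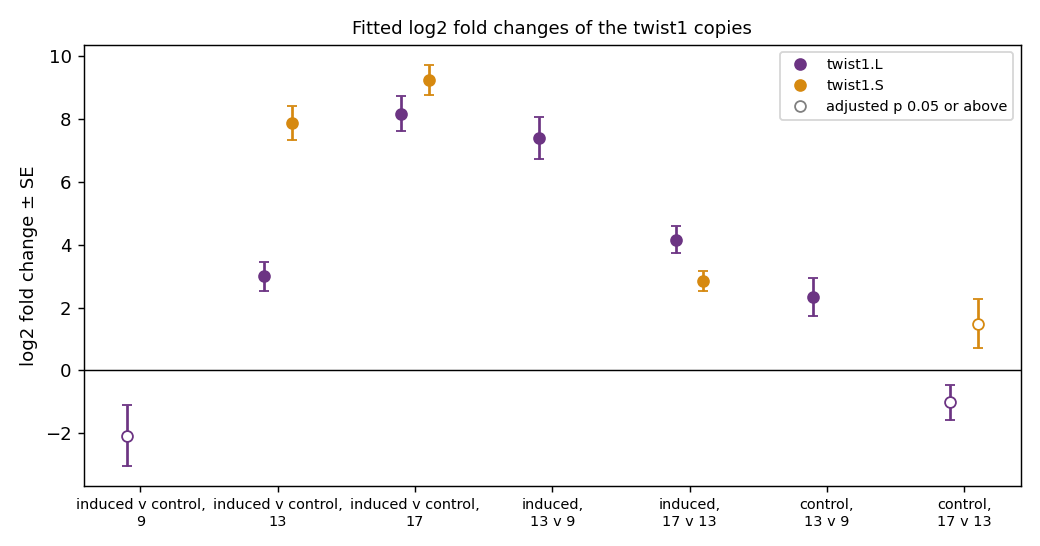
Log2 fold changes of twist1.L and twist1.S in each comparison, with bars of 1 standard error, where values above 0 mean higher in induced caps or at the later stage and open points did not pass. Comparisons of twist1.S against a group with 3 counts or fewer are not drawn. The copies stand apart at stage 13 (2.99 and 7.87) and come close at stage 17 (8.16 and 9.24).

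The makeup of twist1 counts by copy was also read within each library, where no scaling between libraries is needed. In induced caps of stage 13 the long copy made up 22.2% (95% exact Clopper-Pearson interval 18.3 to 26.6%), 38.2% (34.2 to 42.4%) and 23.2% (20.6 to 26.1%) of the counts of both copies. In control caps of stage 13 it made up 92.9% (66.1 to 99.8%), 96% (79.6 to 99.9%) and 87% (66.4 to 97.2%). The intervals of induced and control libraries did not meet, with the long copy dominant in control caps and the short copy in induced caps.

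By stage 17 the long copy made up 49.8% (48.6 to 51.1%), 49% (47.9 to 50.1%) and 46.7% (45.6 to 47.8%) in induced caps. In control caps it made up 30.8% (9.09 to 61.4%), 89.7% (72.6 to 97.8%) and 42.9% (9.9 to 81.6%). Induced caps had reached near equal counts, and the control libraries, with few counts, spread on either side of them. Intervals and floors here and elsewhere cover counting error only. Counts are not divided by transcript length, so a share is one of counts and not of transcripts. Its change between groups in percent depends on the lengths of the copies too. In the log2 ratio of the copies, length cancels out of a difference between groups where both copies have many counts.

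The log2 ratio of twist1.L to twist1.S averaged −1.40 in induced and 3.25 in control caps at stage 13. The difference was −4.65 (two-sided exact permutation test, p = 0.1, adjusted 0.133 over 4 comparisons). A p of 0.1 is the smallest that 3 against 3 libraries allow. The control ratio rests on 1, 1 and 3 counts of twist1.S with a pseudocount of 0.5, so length need not cancel out of this difference. In induced caps the ratio averaged −0.09 at stage 17 and −1.40 at stage 13, a difference of 1.32 without overlap (exact permutation p = 0.1, adjusted 0.133). At stage 17 the difference between induced and control caps was −0.58, with overlap (exact permutation p = 1), and 0.63 without control library b. At stage 9 it was −2.60 (exact permutation p = 0.1, adjusted 0.133), but this value rests on a pseudocount of 0.5 beside counts of 0 to 8.

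**Figure D3:**
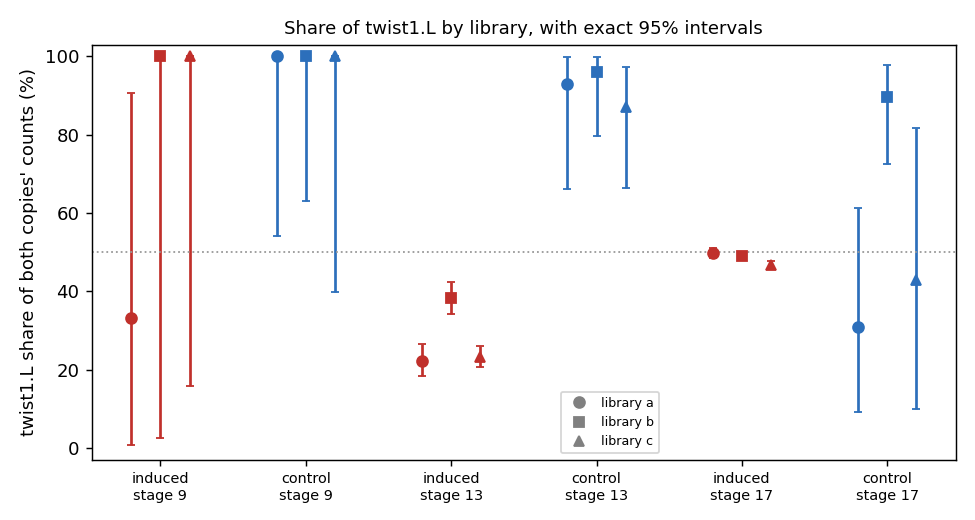
Share of twist1.L in the counts of both twist1 copies (%) in every library, with exact 95% intervals and a dotted line at equal counts. Induced caps of stage 13 lie below the line, between 22.2 and 38.2%, control caps of stage 13 lie above it, between 87 and 96%, and induced caps of stage 17 lie close to it.

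With the counts of both copies added, twist1 stood at 0.0837 ± 0.0409 CPM in induced and 0.255 ± 0.102 CPM in control caps at stage 9 (SD, n = 3 each). It stood at 38 ± 14.1 CPM in induced and 1.44 ± 0.594 CPM in control caps at stage 13, and at 385 ± 32.2 CPM in induced and 0.948 ± 0.582 CPM in control caps at stage 17. The log2 fold changes were −1.55 ± 0.74 (adjusted p = 1, edgeR), 4.75 ± 0.38 (adjusted p = 2e-07) and 8.65 ± 0.44 (adjusted p = 1.9e-09) at these stages. As 1 gene, twist1 showed a difference between induced and control caps that grew by 3.90 ± 0.53 from stage 13 to 17 (adjusted p = 0.00037, edgeR).

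In bulk RNA, fewer cells with a transcript and less of it per cell cannot be told apart, and animal caps can hold cells other than crest. Epidermal markers (12 copies) summed to 10900 to 11800 CPM in induced and 33600 to 37900 CPM in control caps at stage 13, and to 19900 to 28400 CPM in induced and 45600 to 61600 CPM in control caps at stage 17. Epidermal transcripts thus stood at high levels in induced and control caps of these stages, and the sum was lower in induced caps. Both copies of krt12.4, krt12.5, tp63 and grhl3 were lower in induced caps at both stages. Both copies of epcam were higher in induced caps at stage 13 (1370 against 658 and 1620 against 1050 CPM). At stage 17 krt70.L was higher (3100 against 2290 CPM). Summed neural plate markers (9 copies) were also higher in induced caps. They stood at 381 to 461 CPM in induced and 73.1 to 96.2 CPM in control caps at stage 13. At stage 17 they stood at 68.2 to 133 CPM in induced and 49.1 to 60.2 CPM in control caps. The sum thus fell between these stages in induced caps, while twist1 rose. Its members were split at stage 17. Both copies of ncam1 (28 against 3.4 and 33.6 against 5.01 CPM) and of otx2 were higher in induced caps. Both copies of sox3 were lower (2.67 against 7.35 and 6.16 against 21.5 CPM), and sox2.L was nearly level (2.54 against 2.27 CPM). The part of neural plate cells in the levels of twist1, of border factors and of cdh2 was not tested.

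Mesoderm, where frog embryos also transcribe twist1, was read with marker lists. Summed mesoderm markers (13 copies) were 33.6, 50.6 and 14.4 CPM in induced libraries a, b and c and 2.63 to 5.56 CPM in control caps at stage 13. The induced libraries averaged 32.9 CPM. Of this, foxc1.S made up 15 ± 13.6 CPM (SD, n = 3), and foxc1 also belongs to the crest mesenchyme list below. Muscle markers (17 copies) were 7.33, 81.8 and 8.2 CPM in the same induced libraries and 2.98 to 4.49 CPM in control caps. Endoderm markers (9 copies) were 29.6, 71.4 and 35.8 CPM in these induced libraries and 29.3 to 48.1 CPM in control caps. Induced library b held the most of all 3 lists. Its twist1.L (12.8 CPM) was the highest of the 3 libraries, its twist1.S (20.6 CPM) the lowest, and its share of twist1.L (38.2%) stood apart from the others (22.2 and 23.2%).

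At stage 17 mesoderm markers were 5.38, 4.51 and 16.8 CPM in induced and 5.09 to 6.57 CPM in control caps, and muscle markers were 6.77, 9.27 and 44.1 CPM in induced and 2.45 to 4.32 CPM in control caps. Induced library c held the most of both. Its twist1.L (167 CPM) was the lowest of the 3, and its twist1.S (190 CPM) lay between those of libraries a (189 CPM) and b (214 CPM). Endoderm markers were 4.56 to 8.77 CPM in induced and 36.5 to 47.9 CPM in control caps at this stage. Notochord markers (10 copies) summed to 3.53, 30.3 and 7.58 CPM in induced and 5.66 to 12.1 CPM in control caps at stage 13. Their sums at stage 17 were 5.47 to 14.5 CPM in induced and 0.985 to 3.51 CPM in control caps. At that stage tbxt.S (5.12 against 0.728 CPM), tbxt.L (0.731 against 0.194 CPM) and col2a1.L (2.4 against 0.972 CPM) were higher in induced caps. The copy not.S was lower (0.0809 against 0.178 CPM). Both copies of shh were at 0 in induced caps of stage 17, and at 0 and 0.0421 CPM in control caps. The gene tbxt belongs to the mesoderm list as well. Lateral plate and heart markers (15 copies), the other mesodermal site of twist1, had a lower sum in each induced library. They summed to 11.9 to 16 CPM in induced and 55.3 to 60.1 CPM in control caps at stage 13. At stage 17 they summed to 8.03 to 9.6 CPM in induced and 59.1 to 100 CPM in control caps. Both copies of hand2, gata5 and nkx2-5 were lower in induced caps at both stages. In contrast, gata6.L was higher in induced caps (6.17 against 2.72 CPM at stage 13 and 6.81 against 1.04 CPM at stage 17). The copy gata4.L was higher at stage 13 (2.65 against 0.786 CPM). At that stage gata6.S (1.95 against 24.3 CPM) and gata4.S (0.642 against 9.53 CPM) were lower in induced caps. The part of these cells in the twist1 counts was not tested.

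**Figure D4:**
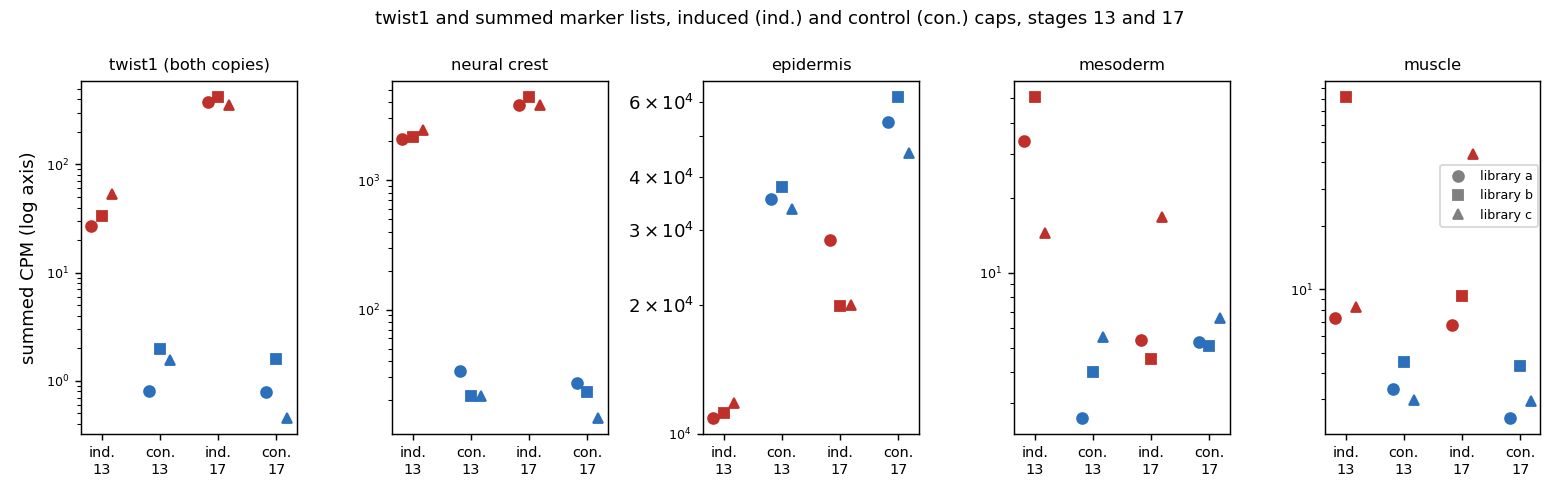
Summed CPM (log axes) of twist1 and of neural crest, epidermis, mesoderm and muscle marker lists in each library of stages 13 and 17, induced (ind.) left of control (con.) caps. Muscle markers peak in induced library b at stage 13 (81.8 CPM) and in induced library c at stage 17 (44.1 CPM), where the mesoderm markers also stand highest within their group.

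The E protein partners of twist1 were also higher in induced caps. Of 6 copies 5 were tested. At stages 13 and 17 alike 4 were higher, 0 lower and tcf4.L did not pass, beside 18.9% and 22.2% of all genes called higher. The median log2 fold change was 0.83 at stage 13 and 0.88 at stage 17, against 0.01 and 0 over all genes tested. The gene tcf12.L stood at 93.7 ± 19.2 CPM in induced and 17.2 ± 1.45 CPM in control caps at stage 13 (SD, n = 3 each; log2 fold change 2.45 ± 0.17, adjusted p = 8.7e-08, edgeR), and its copy tcf12.S was higher by 2.81 ± 0.23. For tcf12.S the means at stage 13 were 55.6 CPM in induced and 7.96 CPM in control caps, and those at stage 9 were 35.9 CPM in induced and 33.6 CPM in control caps. Both copies of tcf3 differed less, with 0.83 ± 0.16 for tcf3.L and 0.81 ± 0.15 for tcf3.S at stage 13. Unlike twist1, tcf12 was lower at stage 17 than at stage 13 in induced caps, by 1.37 on the log2 scale for tcf12.L (SE 0.17, adjusted p = 1.6e-05).

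Both copies of the Id inhibitors id2 and id4 were lower in induced than in control caps, and those of id3 were not called at stages 13 and 17. Of 6 copies 0 were higher, 4 lower and 2 not passed at both stages, beside 21.4% of all genes called lower at stage 13 and 22.8% at stage 17, with a median log2 fold change of −2.48 at stage 13 and −1.81 at stage 17. The gene id2.S stood at 56.1 ± 28.4 CPM in induced and 412 ± 47.4 CPM in control caps at stage 13 (−2.88 ± 0.32, adjusted p = 4.2e-06, edgeR), and id4.L at 3.18 ± 1.87 CPM in induced and 41.3 ± 7.2 CPM in control caps (−3.69 ± 0.49). Their copies id2.L (−2.08 ± 0.32) and id4.S (−3.19 ± 0.37) were lower than in control caps too, although id4.S rose in induced caps from stage 9 to 13 (6.22 ± 0.53, adjusted p = 3.4e-08, edgeR). In that step 4 of the 6 Id copies rose and 1 fell (median log2 change 4.78), where 70.6% of all genes were called in either direction. The gene id3.L stood at 518 ± 64.9 CPM in induced and 422 ± 11.3 CPM in control caps at stage 13 and at 427 ± 30.7 CPM in induced and 295 ± 2.8 CPM in control caps at stage 17, and id3.S at 444 ± 27 CPM in induced and 317 ± 17.6 CPM in control caps at stage 17. None of these passed (adjusted p = 0.63, 0.32 and 0.3, edgeR), but in a fit of the stage 17 libraries alone, with or without the replicate block, 2 Id copies were called higher. At stage 9, before twist1 was counted in numbers, both copies of id3 were the lower ones, with −3.76 for id3.L and −3.17 for id3.S. From stage 13 to 17 in induced caps 0 of the 6 copies passed in either direction with edgeR's test.

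Relatives of twist1 in the bHLH family mostly had few or no counts. Of 12 copies of twist2, hand1, hand2, scx, tcf15, tcf21 and msc, 8 did not pass the filter on low counts. Of all 49282 genes 24499 passed it. Among the 4 tested copies 1 was higher, 2 were lower and 1 did not pass, at stages 13 and 17 alike. Over all genes 18.9% were called higher and 21.4% lower at stage 13, and 22.2% and 22.8% at stage 17. The tested copies of hand2, a factor of heart and lateral plate, were both lower in induced caps. At stage 17 hand2.S stood at 0.394 ± 0.235 CPM in induced and 27.8 ± 7.19 CPM in control caps (−6.16 ± 0.57, adjusted p = 5.9e-07, edgeR), and the ratio of induced to control caps for hand2.L was 0.0019 (95% counting interval 0.00023 to 0.00689). At stage 13 the values were −2.09 ± 0.66 for hand2.L and −2.16 ± 0.49 for hand2.S, and 1 of these 2 calls was lost when control library b or either of induced libraries a and b of that stage was left out. The paraxial mesoderm factor tcf15.S stood at 0.798 ± 0.589 CPM in induced caps and no counts in control caps at stage 13 (adjusted p = 0.036, edgeR) and at 0.583 ± 0.513 CPM in induced caps and no counts in control caps at stage 17 (adjusted p = 0.041). No gene of the list was called higher in 11 of 25 alternative settings at stage 13 and in 9 of 25 at stage 17. A row with the provisional name twist2 (LOC108708625) held 5, 4 and 6 counts in induced and 12, 8 and 11 counts in control libraries of stage 9 and 0 counts in all 12 later libraries.

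Neural plate border factors, which act upstream of crest factors in current schemes, followed another course than twist1. Of 17 tested copies 16 were higher at stage 13, 0 lower, and pax7.S did not pass, where 18.9% of all genes were called higher. At stage 17 the numbers were 11 higher, 1 lower (pax7.S, −2.66 ± 0.70, adjusted p = 0.0055, edgeR) and 5 not passed. At that stage 22.2% of all genes were called higher and 22.8% lower. In induced caps 0 of the 17 rose from stage 13 to 17 and 11 fell, beside 21% and 18.7% of all genes. Their median log2 change was −1.07, while both copies of twist1 rose. The paired-box gene pax3.S stood at 398 ± 62.4 CPM in induced and 0.325 ± 0.316 CPM in control caps at stage 13, and at 190 ± 147 CPM in induced and 0.203 ± 0.144 CPM in control caps at stage 17 (SD, n = 3 each). Its copy pax3.L fell by 1.26 between these stages in induced caps (SE 0.35, adjusted p = 0.011, edgeR), while pax3.S did not pass (−1.07 ± 0.47, adjusted p = 0.081).

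Other crest factors were split in their timing, and twist1 shared its late gain with some of them. Of 20 copies of crest factors 18 were higher and 2 lower at stage 13 (median log2 fold change 6.12, or 4.83 with genes empty in control caps at their lower bound), and 18 were higher, 0 lower and 2 not passed at stage 17 (median 6.91). Among all genes 18.9% were called higher at stage 13 and 22.2% at stage 17. From stage 13 to 17 in induced caps 12 rose, 0 fell and 8 did not pass, with a median of 2.42, beside 4.16 and 2.84 for the copies of twist1. In that step 21% of all genes rose and 18.7% fell. The SoxE gene sox10.S, a factor of crest progenitors and their glial and pigment derivatives, stood at 342 ± 4.6 CPM in induced caps and no counts in control caps at stage 17 (at least 5690-fold higher) and had been at 2.4 ± 1.82 CPM in induced caps at stage 13. It rose by 7.14 ± 0.52 between these stages (adjusted p = 2.6e-05, edgeR), and sox10.L by 7.05 ± 0.81. The forkhead gene foxd3.L rose by 2.88 ± 0.34 and foxd3.S by 1.49 ± 0.44. In contrast, snai1.L, which codes for a repressor of cadherin genes, changed by −0.64 ± 0.27 (adjusted p = 0.066) and did not pass.

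The ETS factor gene ets1 moved against the list. At stage 13 its copies differed by −2.03 ± 0.20 (ets1.L, adjusted p = 1.3e-06, edgeR) and −1.14 ± 0.36 (ets1.S, adjusted p = 0.018), while both copies of twist1 were already higher. Leaving out control library b or induced library a of stage 13 ended the call of ets1.S. At stage 17 ets1.S was higher, with 179 ± 13.1 CPM in induced and 14.2 ± 1.58 CPM in control caps (3.66 ± 0.39, adjusted p = 2.3e-06), and ets1.L did not pass (−0.24 ± 0.19, adjusted p = 0.33).

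Genes of adhesion and of the epithelial to mesenchymal change were mostly higher at the stages at which twist1 was. Of 28 copies 24 were tested, of which 18 were higher, 1 lower and 5 not passed at stage 13 (median log2 fold change 2.08) and 15 higher, 1 lower and 8 not passed at stage 17 (median 2.51). Of all genes 18.9% were called higher and 21.4% lower at stage 13, and 22.2% and 22.8% at stage 17. N-cadherin, cdh2.L, stood at 72.3 ± 20.5 CPM in induced and 1.25 ± 0.199 CPM in control caps at stage 13 (5.86 ± 0.48, adjusted p = 2.7e-07, edgeR) and at 85.9 ± 21.2 CPM in induced and 0.454 ± 0.242 CPM in control caps at stage 17 (7.53 ± 0.54). E-cadherin, cdh1.S, was the copy called lower, with 392 ± 9.93 CPM in induced and 1240 ± 67.4 CPM in control caps at stage 13 (−1.66 ± 0.27) and 509 ± 76.5 CPM in induced and 1580 ± 121 CPM in control caps at stage 17 (−1.63 ± 0.27). Within induced caps it rose from stage 9 to 13 (3.36 ± 0.29, adjusted p = 3.8e-08, edgeR).

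Its other copy, cdh1.L, was higher, at 10.3 ± 2.44 CPM in induced and 0.265 ± 0.113 CPM in control caps at stage 13 (5.24 ± 0.91, adjusted p = 0.00025, edgeR). The zinc-finger repressor gene zeb2.L stood at 78 ± 25.3 CPM in induced and 0.0452 CPM in control caps at stage 13, a ratio of 1780 (95% counting interval 492 to 14700). It did not pass between stages 13 and 17 in induced caps (−0.04 ± 0.51, adjusted p = 0.96), and over the list 6 of 24 copies rose, 4 fell and 14 did not pass in that step, shares near the 21% and 18.7% of all genes. The related zeb1.L was among those that rose (2.34 ± 0.65, adjusted p = 0.011).

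Genes of crest-derived mesenchyme went in both directions. Of 22 copies 15 were tested, and at stages 13 and 17 alike 6 were higher, 3 lower and 6 not passed (median log2 fold change 0.98 and 0.86). Of all genes 18.9% were called higher at stage 13 and 22.2% at stage 17. The share called lower was near that of all genes (21.4% at stage 13 and 22.8% at stage 17). With the stage 17 libraries alone 5 copies were called lower at that stage. The PDGF receptor gene pdgfra.S stood at 46.2 ± 11 CPM in induced caps and no counts in control caps at stage 13, which is at least 700-fold higher. At stage 17 it stood at 222 ± 7.56 CPM in induced caps and no counts in control caps, which is at least 3700-fold higher. Its copy pdgfra.L stood at 208 ± 17.5 CPM in induced and 0.291 ± 0.175 CPM in control caps at stage 17 (9.41 ± 0.49, adjusted p = 3.1e-09, edgeR). The homeobox gene alx4.L of craniofacial mesenchyme had a ratio of 86.2 at stage 17 (95% counting interval 23.6 to 716), on a mean of 3.83 ± 3.84 CPM in induced caps.

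Some members were lower in induced caps. The homeobox gene dlx2.L was lower at stages 13 and 17 (−4.40 ± 0.62 and −4.29 ± 0.62, adjusted p = 4.2e-05 and 4.5e-05, edgeR). Its copy dlx2.S was lower at stage 13 (−4.08 ± 0.72) and did not pass at stage 17 (−1.28 ± 0.64, adjusted p = 0.12), and alx1.L was lower at stage 13, with a ratio of 0.0312 (95% counting interval 0.000764 to 0.188). The forkhead gene foxc1.L (−3.95 ± 1.00) and the endothelin receptor gene ednra.L (−2.50 ± 0.83) were lower at stage 17. Levels were low, at 0.172 against 2.83 CPM for foxc1.L and 0.191 against 1.14 CPM for ednra.L. The copy ednra.S was higher at stages 13 (3.55 ± 0.68) and 17 (1.81 ± 0.57, 42.4 against 12.1 CPM). At stage 13 foxc1.S (3.65 ± 0.67) and alx1.S (1.85 ± 0.70, 0.398 against 0.0988 CPM) were higher too, and neither passed at stage 17.

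**Figure D5:**
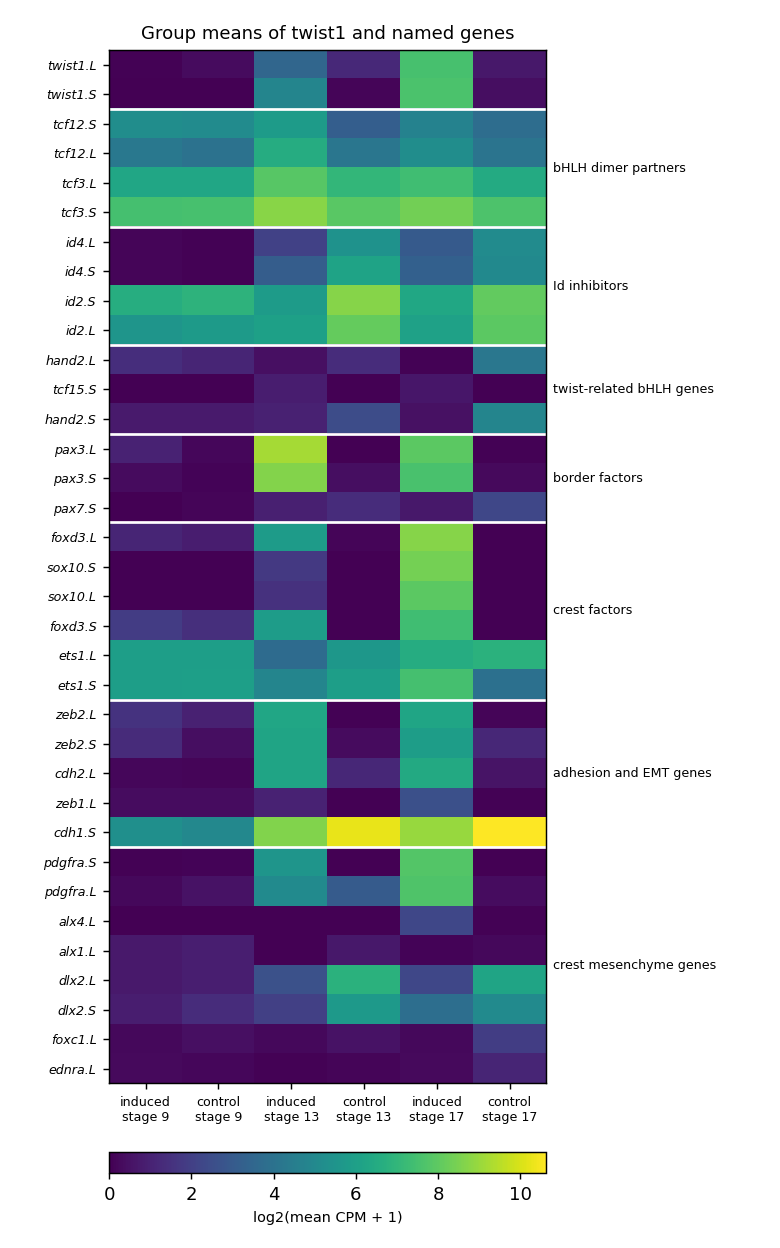
Group mean levels, as log2(mean CPM + 1) in colour, of twist1 and of the named genes of 7 lists, induced left of control caps at stages 9, 13 and 17. Colours can be compared along a row only, since CPM is not divided by transcript length; twist1, sox10, foxd3 and pdgfra are brightest in induced caps of stage 17, and pax3 in induced caps of stage 13.

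Likeness of pattern was measured as Pearson's r of log2(CPM + 1) over all 18 libraries, among 24498 genes, as a description. All genes that differ between induced and control caps share this pattern in part. The copies of twist1 were not each other's nearest genes: r between them was 0.968, which placed twist1.S 38th for twist1.L and twist1.L 57th for twist1.S. The 10 genes most like each copy had 0 genes in common.

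Nearest to twist1.L were abtb2.S (r = 0.989), the Wnt ligand gene wnt10a.L (0.987), ssbp4.S (0.986), the nuclear receptor gene nr2f1.L (0.985), the protocadherin gene pcdh8l.S (0.983), prrt3-like.L (0.981), the semaphorin co-receptor gene nrp1.L (0.979), cib2.S (0.978), homer3.L (0.978) and shb.S (0.977). Having been chosen for likeness over these same libraries, all of them had higher means at stage 17 than at stage 13 in induced caps. The size of this gain varied, from 2.46 to 13.4 CPM for ssbp4.S and from 5.3 to 283 CPM for pcdh8l.S. In induced caps wnt10a.L, for example, was at no counts at stage 9, 2.63 CPM at stage 13 and 27.9 CPM at stage 17, and it had 0, 0.388 and 0.083 CPM in control caps of these stages.

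Nearest to twist1.S were pdgfra.S (r = 0.994), arhgap28.S (0.993), the co-receptor gene nrp2.S (0.991), a gene with the provisional name ltbp4 (LOC108716084, 0.991), st3gal5.S (0.99), ssbp4.L (0.99), nrp1.S (0.99), sipa1.L (0.989), a gene with the provisional name scn2a (LOC108701357, 0.989) and cyp26c1.S (0.989), which codes for an enzyme that degrades retinoic acid. The genes ssbp4 and nrp1 entered both lists with opposite copies, ssbp4.S and nrp1.L beside twist1.L, and ssbp4.L and nrp1.S beside twist1.S. In induced caps nrp1.S was at no counts at stage 9, 48.8 CPM at stage 13 and 191 CPM at stage 17, against 0.0147, 0.0452 and 0.512 CPM in control caps.

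The genes next to twist1 were looked at after their values had been seen. In the order of the RefSeq annotation of the assembly Xenopus_laevis_v10.1, which may not be the one the counts were made on, 5 genes were taken on either side of each copy. Around twist1.L 7 of 10 were tested, of which 3 were higher and 1 lower in induced caps at stage 17. Around twist1.S 6 of 10 were tested, of which 1 was higher and 3 lower. The nearest bHLH gene, ferd3l, had no counts in any library for either copy. The long noncoding RNA gene LOC108718872, directly beside twist1.L, held 58, 50 and 87 counts in induced and 0, 0 and 0 counts in control libraries of stage 17, so it was at least 54.9-fold higher (adjusted p = 3e-05, edgeR), on 3.28 CPM in induced caps. At stage 13 it held 0, 2 and 2 counts in induced and 0, 0 and 0 counts in control libraries. Its counts thus came with the late gain of twist1.L, and as the strand setting of the counting is not given in the sources used here, reads of the neighbours may not be fully separate.

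The histone deacetylase gene hdac9, a neighbour of both copies, was higher at stage 17 at low levels. The log2 fold change was 2.27 ± 0.55 for hdac9.L (1.93 CPM in induced and 0.393 CPM in control caps, adjusted p = 0.0034, edgeR) and 5.19 ± 1.22 for hdac9.S (3.15 CPM in induced and 0.0796 CPM in control caps, adjusted p = 0.0026). Also called higher at stage 17 was polr1f.L, with 60.4 CPM in induced and 9.64 CPM in control caps (2.65 ± 0.21, adjusted p = 1.2e-07, edgeR). It was higher at stage 13 already (1.75 ± 0.20). Called lower at stage 17 were snx13.L (−2.36 ± 0.62) beside twist1.L, and tspan13.S (−2.12 ± 0.20), agr2.S (−3.56 ± 0.69) and macc1.S (−2.07 ± 0.74) beside twist1.S. Changes among the neighbours thus ran in both directions, with 4 of 7 tested genes called around twist1.L and 4 of 6 around twist1.S. Over all genes 45% were called, and these sets are too small to compare with that share.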

How the data were processed

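Messenger RNA of 18 frog cap libraries was analysed. The table the authors deposited holds unnormalized read counts of genes. Per the submitters' processing notes, the tools were fastp 0.23.2, STAR 2.6.0 and HTSeq 1.99.2; neither the genome build nor the annotation or strand choice is given in the sources used here. The 5 summary lines of HTSeq were set aside (no feature 10.2 to 12.8%, ambiguous 0.198 to 0.512%, not unique 10.3 to 12.2% of reads). Genes were tested with edgeR 4.0.16 in R 4.3.3 (quasi-likelihood test, TMM, filterByExpr by group, robust, two-sided), all 18 libraries in 1 fit without a block; 24499 genes passed the filter, p-values were adjusted over them by Benjamini-Hochberg, and 0.05 was the threshold. Standard errors come from the fold change and its F statistic and are nominal where a group is nearly empty. Scripts were tested on simulated counts. Replicates differed beyond counting error (chi-square per degree of freedom 19.6 to 67.7).

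The members and the 7 gene lists were chosen with earlier results of these data known. Named are the 10 genes most like each copy and, per list, up to 4 copies of largest change past the threshold at stages 13 or 17 plus those that move opposite; cdh1.L, snai1.L, id3, tcf4.L and the neighbours were added after their values were seen, and 1 gene that the rule names is not reported here. Column letters stand in no label and were matched to groups only. Deviations of libraries with the same letter correlated at 0.798 to 0.828, 0.344 to 0.535 and 0.333 to 0.498 between induced and control caps of stages 9, 13 and 17, so letters were used as a replicate block in an alternative. Other alternatives were library totals, RLE factors, DESeq2 1.42.0, no filter, summed copies, compared groups alone and leaving out each library.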

Additional observations from a re-analysis of the deposited data

Results flagged for a closer look

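For twist1.L the difference between induced and control caps changed with stage, by 5.06 on the log2 scale from stage 9 to 13 (adjusted p = 0.0026, edgeR's interaction term) and by 5.17 from stage 13 to 17 (adjusted p = 0.00041). The 3 induced libraries lay above the 3 control libraries at stage 13 and at stage 17 alike, which by itself does not show a change between these stages.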

How the results depend on the processing

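The calls of both copies of twist1 between induced and control caps at stages 13 and 17 and between successive stages of induced caps, and those of twist1.L for control caps from stage 9 to 13 and for both interactions, kept direction and side of the threshold in 26 of 26 settings. At stage 17 the log2 fold change ran from 7.77 to 9.73 for twist1.L and from 8.65 to 9.89 for twist1.S, and at stage 13 from 2.69 to 4.75 and from 4.75 to 8.57, where 4.75 is that of the summed copies. Values that rest on a few counts moved. With the copies summed, the comparisons of twist1.S gave −1.55 for induced against control caps at stage 9, −0.55 for control caps from stage 13 to 17, and 6.30 and 3.90 for the interactions from stage 9 to 13 and 13 to 17, as its counts then include those of twist1.L. Leaving out 1 library gave twist1.S at stage 9 values from 0 to 2.91 (0 without induced library a, which leaves it no counts), twist1.S in control caps from stage 9 to 13 values from 3.51 to 4.56 (3.87 with library totals), and twist1.L in control caps from stage 13 to 17 values from −2.55 to −0.61. DESeq2 gave 6.17 for the first interaction of twist1.S. The difference in log2 ratio of the copies at stage 17 ran from −1.37 to 0.63. The cause of these changes was not tested.

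The replicate block over all libraries changed no call of twist1 (8.31 and 9.26 for the copies at stage 17); with only the compared libraries it gave −1.35 for twist1.L in control caps from stage 13 to 17 and changed no other call among those it could test. Stage 9 and twist1.S in control caps could not be fitted with only the compared libraries, since too few counts passed the filter. Of the 10 genes most like twist1.L 0 stayed among the nearest by Spearman's rank correlation, 4 over 6 group means and 8 with 0.1 CPM added; for twist1.S the numbers were 0, 1 and 3.

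Counts over all genes moved most at stage 9, where 85 higher and 16 lower became 156 and 32 with DESeq2, 10 and 0 with the compared libraries alone, 387 and 242 with these and the replicate block, and 41 to 158 and 7 to 26 without 1 library. For the interaction from stage 13 to 17, 987 higher and 997 lower became 1503 higher with the block, 2316 and 1610 with the compared libraries and the block, 1576 lower with DESeq2, and 630 to 1175 and 627 to 1035 without 1 library. Scaling by library totals moved the median log2 value of all genes by −0.65 for induced and −0.79 for control caps from stage 9 to 13. At this depth a copy of twist1 under 3 counts per group cannot be told from 0.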
